A study of Mus musculus with 4 samples.

Results

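The variable segments of the T cell receptor were examined in single cells of mouse lung. Members were taken by symbol, as every gene of the deposited annotation whose name starts with Trbv, Trav, Trgv or Trdv. This gave 170 of 32285 genes, made up of 128 Trav, 35 Trbv, 6 Trdv and 1 Trgv segment. They were counted in cells with at least 1 UMI (unique molecular identifier, 1 captured RNA molecule) summed over Cd3e, Cd3d and Cd3g, which encode the CD3 chains that carry the receptor to the surface. Placebo 1 and placebo 2 had 1512 and 998 such cells, tamoxifen 1 and tamoxifen 2 had 1462 and 1233, out of 7480, 6676, 6849 and 7472 cells kept.

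The libraries came from whole lungs of female FVB/NJ mice aged 13 weeks, 2 mice per group, and were made with a 10x Genomics 5′ gene expression kit. All 4 mice carried the MMTV-PyMT transgene, in which the promoter of mouse mammary tumor virus drives the polyoma middle T antigen, so that mammary tumors arise in every group and no tumor-free lung is included. From 8 weeks of age the tamoxifen mice carried a pellet of 5 mg tamoxifen with a 60-day release for 5 weeks, and the placebo mice a placebo pellet for the same time. The comparison of the groups asks what long systemic exposure to tamoxifen, a drug that acts on estrogen receptors, does in the lung.

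A T cell receptor is a pair of chains, alpha with beta or gamma with delta. In the thymus each T cell joins 1 variable segment to joining segments of the same locus, and to a diversity segment in the beta and delta loci, so that the segment found in a transcript is a property of the cell and its descendants. Most T cells carry alpha and beta chains and recognise peptides on MHC class II (CD4 T cells) or class I (CD8 T cells). A smaller set carries gamma and delta chains, and in the mouse lung a part of it belongs to an IL-17-producing type built from the delta segment Trdv4 and the gamma segment named Tcrg-V6 in these files. The 5′ kit reads the end of the transcript where the variable segment lies, and it measures segments, not the joined receptor, so cells with the same segments need not share a receptor.

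The beta segments separated into 15 that were detected and 20 with no UMI in any mouse. Of the 20, 17 were neighbours, from Trbv6 to Trbv18, in a run at chr6:41066879-41175608 (GRCm38), and 9 of these 17 are annotated as genes. The other zeros were Trbv25, Trbv27 and Trbv28, each annotated as a pseudogene. All 13 annotated genes outside the run were detected. Among the detected segments, Trbv24 is annotated as a pseudogene yet gave 2822 UMIs in 497 cells, and its reference sequence (chr6:41218091-41218557, plus strand) holds 1 in-frame stop codon. Its last 240 of 347 bases, from the GENCODE M21 transcript of GRCm38, are shown because the stop lies near its end, with the stop codon in capitals.
Trbv24: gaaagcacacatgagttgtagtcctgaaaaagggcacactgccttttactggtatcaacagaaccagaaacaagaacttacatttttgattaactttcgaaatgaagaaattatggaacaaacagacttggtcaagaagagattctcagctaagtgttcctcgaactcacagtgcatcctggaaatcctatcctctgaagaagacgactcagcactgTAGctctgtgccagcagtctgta

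The stop codon starts at base 325 and 20 bases follow it. It is directly followed by CTCTGTGCCAGCAG, a run of 14 letters that 6 of the 35 Trbv segments and no other member hold on the transcript strand, the sole strand searched. The last 45 bases of these 6 are set side by side to show the 3 bases before that run, in capitals, which are a codon in frame from the first base in all of them but Trbv22.
Trbv24: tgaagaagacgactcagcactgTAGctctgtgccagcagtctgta
Trbv26: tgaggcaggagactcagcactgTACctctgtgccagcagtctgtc
Trbv22: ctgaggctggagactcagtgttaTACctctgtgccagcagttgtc
Trbv4: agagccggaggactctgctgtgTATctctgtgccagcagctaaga
Trbv14: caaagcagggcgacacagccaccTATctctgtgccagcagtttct
Trbv19: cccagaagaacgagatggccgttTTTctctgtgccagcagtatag
These bases were TAC or TAT, which encode tyrosine, in 4 of the 6, TTT in Trbv19 and TAG in Trbv24. The mice are FVB/NJ and the reference is C57BL/6J, and the deposited counts do not show which base the reads carried at that codon. As background, inbred strains are known to differ in this locus, both in a germline deletion of beta segments and in whether the Trbv24 product, older name V-beta 17, is functional, and FVB/N mice are known to carry the deletion and the functional form.

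The last 240 bases of 3 further segments on which the results turn follow, all in lower case because no letter in them is singled out. Trbv13-2 (chr6:41121396-41121832, plus strand, coding part) is the segment formerly called V-beta 8.2, a common one in other strains, and lay in the silent run.
Trbv13-2: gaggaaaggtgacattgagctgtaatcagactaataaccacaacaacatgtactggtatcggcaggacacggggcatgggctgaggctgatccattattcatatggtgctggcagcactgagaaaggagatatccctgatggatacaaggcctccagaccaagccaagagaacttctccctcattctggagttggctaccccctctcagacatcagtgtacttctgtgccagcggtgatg
Trbv19 (chr6:41178375-41179048, plus strand) is the first segment after the run and had the highest mean share of Trbv UMIs in CD8 T cells. Trbv1 lay above it there in both placebo mice.
Trbv19: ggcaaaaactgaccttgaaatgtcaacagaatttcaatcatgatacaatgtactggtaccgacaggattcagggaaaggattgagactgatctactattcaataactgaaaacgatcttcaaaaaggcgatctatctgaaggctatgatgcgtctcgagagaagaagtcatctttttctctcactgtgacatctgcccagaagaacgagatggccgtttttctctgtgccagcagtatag
Trdv4 (chr14:54074905-54075515, plus strand) is the leading delta segment.
Trdv4: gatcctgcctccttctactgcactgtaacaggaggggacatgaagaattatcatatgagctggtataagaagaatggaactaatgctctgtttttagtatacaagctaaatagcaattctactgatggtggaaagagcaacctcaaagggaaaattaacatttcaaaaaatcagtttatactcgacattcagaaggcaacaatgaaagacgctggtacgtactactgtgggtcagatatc

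In the Cd3-positive cells the Trbv segments together gave 20012 UMIs, the Trav segments 6190, the Trdv segments 1255 and Trgv2 514. At least 1 Trbv UMI was found in 65.2%, 39.5%, 66.9% and 53.0% of these cells (placebo 1, placebo 2, tamoxifen 1, tamoxifen 2, the order of every run of 4 values here; 56.2% ± 12.7, SD, n = 4), lowest in placebo 2. B cells, which should lack the receptor, held one in 0.336% (7 of 2083 cells) and neutrophils in 0.747% (88 of 11780), at median depths of 3075 and 2910 UMIs per cell against 3328 in the Cd3-positive cells. In the coreceptor gates the share was high and even. CD4 T cells were Cd3-positive cells with Cd4 and without Cd8a, Cd8b1 or Trdc, and 87.0%, 88.3%, 86.3% and 85.9% of them had a Trbv UMI. CD8 T cells, with Cd8a or Cd8b1 and without Cd4 or Trdc, had one in 84.2%, 87.3%, 89.0% and 88.7%. The gates held 300, 145, 351 and 234 CD4 and 240, 102, 290 and 142 CD8 T cells. A list of 8 T cell genes that includes the Cd3 genes reached 3 UMIs in 95.8% to 99.6% of the cells of these gates.

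Cells with none of Cd4, Cd8a, Cd8b1 and Trdc were the largest set (912, 720, 742 and 809 cells), and 54.2%, 22.9%, 51.5% and 37.7% of them had a Trbv UMI. Myeloid genes (S100a8, S100a9, Lyz2, C1qa, Csf1r and Csf3r) reached 3 UMIs in 25.3%, 74.0%, 39.5% and 53.4% of the same cells, the reverse order of mice. With cells holding markers of other lineages removed, the share of Cd3-positive cells with a Trbv UMI was 76.3% ± 3.32. In CD4 and CD8 T cells the myeloid list reached 3 UMIs in 2.56% to 14.5% of cells, highest in placebo 2. Total depth was 32728083, 37285982, 32646505 and 35625624 UMIs per library. Pairs of libraries shared 77 to 128 barcodes of 7272 to 10168, and 32 to 43 Cd3-positive cells per mouse had a barcode also present in another library.

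Along the beta locus the silent run began 4.08 kb after Trbv5, which gave 241 UMIs, and ended 2.77 kb before Trbv19, which gave 2837. The annotated genes in it are Trbv12-1, Trbv13-1, Trbv12-2, Trbv13-2, Trbv13-3, Trbv14, Trbv15, Trbv16 and Trbv17, and the pseudogenes are Trbv6, Trbv7, Trbv8, Trbv9, Trbv10, Trbv11, Trbv12-3 and Trbv18. A count of 0 allows up to 0.015% of the Trbv UMIs, 3 counts of the total. Over all 34755 barcodes, cells of every kind and droplets that failed the filters included, the run gave 1 UMI, of Trbv13-3, in a cell without Cd3. Every 60-base window of all 22 annotated Trbv genes was unique among the transcripts of the receptor variable segments, so none of the silent genes had a near-identical copy among them.

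**Figure D1:**
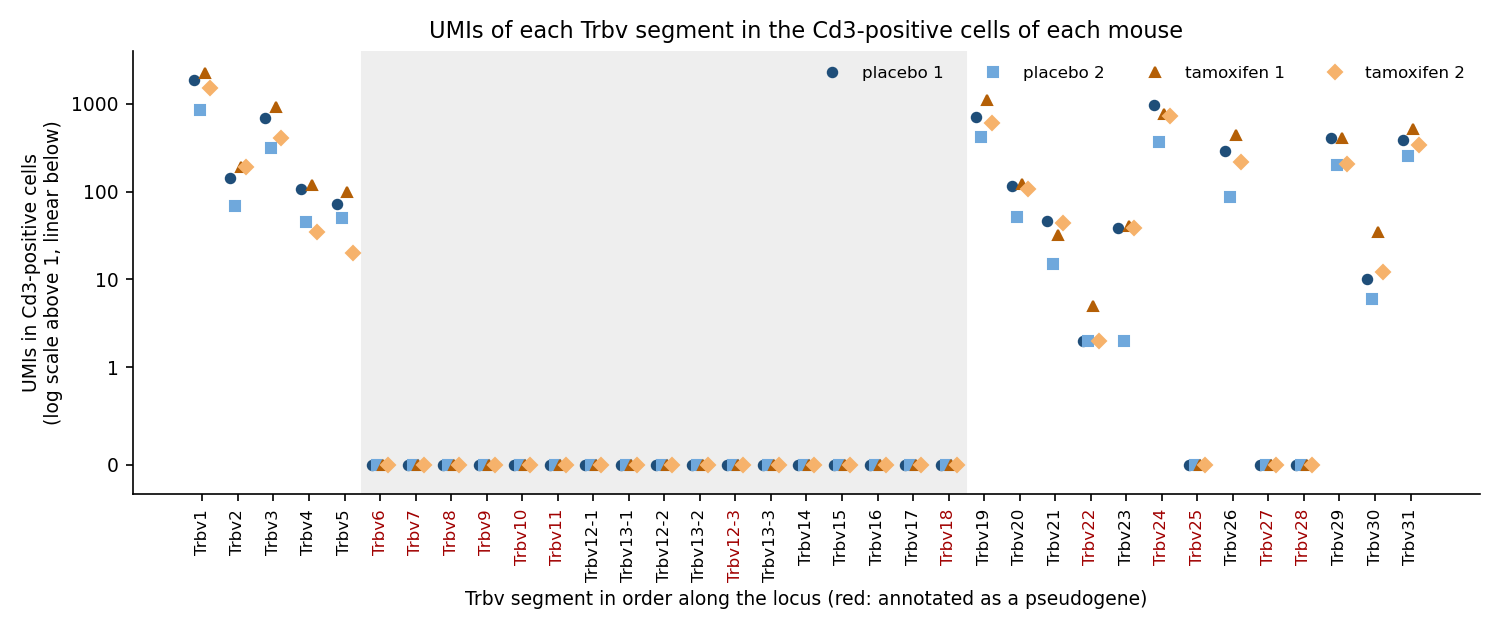
UMIs in Cd3-positive cells (vertical axis, log scale above 1 and linear below) of each Trbv segment in its order along chromosome 6 (horizontal axis), 1 point per mouse, with the 17 segments of the silent run on grey and pseudogenes in red letters. All 4 mice sit at 0 over the run and above 0 at both flanks, and Trbv24 reads as high as the leading annotated genes.

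The detected beta segments spanned a wide range, from 11 UMIs of Trbv22 to 6440 of Trbv1. Trbv1 had 1853, 847, 2237 and 1503 UMIs, and the mean over its 630 positive cells was 10.2 UMIs. Trbv19 followed with 2837 UMIs in 409 cells and Trbv24 with 2822 in 497. Trbv3 gave 2313 UMIs in 472 cells, Trbv31 gave 1495 in 349, Trbv29 gave 1209 in 236 and Trbv26 gave 1029 in 191. These 7 were detected in all 4 mice, with the lowest count in placebo 2, the mouse with the fewest Cd3-positive cells. Of the rest, Trbv2 (593 UMIs), Trbv20 (396), Trbv4 (308) and Trbv5 (241) were more abundant than Trbv21 (137), Trbv23 (118) and Trbv30 (63).

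UMIs per cell differed between segments, so a share of UMIs and a share of cells rank them differently. A cell positive for Trbv5 had 1.43 UMIs of it on average, for Trbv4 1.74 and for Trbv2 2.13, against 5.68 for Trbv24 and 6.94 for Trbv19. Within the Cd3-positive cells, 2483 had exactly 1 Trbv segment and 508 had 2. In the latter the higher segment had a median of 5 UMIs and the lower a median of 1, and the lower was at 1 UMI in 62.8% of them. Trbv5 was in 15.4% of the cells with 2 segments and in 3.62% of the cells with 1, while Trbv1 was in 28.7% and 19.2%. Median depth was 3369 UMIs in cells with 2 segments and 3131 in cells with 1.

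Among the alpha segments 73 of 128 were detected. Trav3-3 led with 491 UMIs in 195 cells, at 167, 56, 183 and 85 UMIs per mouse, and Trav5-4 followed with 399 UMIs in 165 cells, at 132, 70, 131 and 66. Trav13-1 had 286 UMIs, Trav13-2 283, Trav9-1 252, Trav8d-1 232, Trav4-2 229, Trav13n-4 191, Trav16d-dv11 171 and Trav14-1 158. No alpha segment had a share of its chain's UMIs like that of Trbv1 among the beta segments: Trav3-3 made up 6.11% to 9.75% of the Trav UMIs, and Trbv1 31.1% to 33.8% of the Trbv UMIs.

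Alpha segments with no UMI were for the most part ones that cannot be told from a copy. The locus is duplicated in the mouse, and names with d or n mark the copies. Of the 40 annotated Trav genes with 0 UMIs, 33 had no 60-base window unique among the variable segments and 28 had an identical copy, whereas the 68 detected Trav genes had 62.0% unique windows at the median. Trav23 was at 0 UMIs with every window unique. Segments without d or n were detected in 43 of 55 cases and gave 72.2% of the Trav UMIs, those with d in 17 of 39 with 17.3%, and those with n in 13 of 34 with 10.6%. The levels of Trav genes with near-identical copies, zeros included, are uncertain, since reads could be split or dropped between copies.

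Segments of invariant T cells were looked for by name. Trav11, the alpha segment of invariant natural killer T cells, gave 3 UMIs in 3 cells, all in the set without coreceptor, and its copy Trav11d gave 0. Neither had a unique window, so their levels are uncertain. Trav1, used by mucosal-associated invariant T cells among others, is unique throughout and gave 149 UMIs in 69 cells. It had 29, 5, 6 and 4 UMIs in CD4 T cells and 9, 2, 15 and 8 in CD8 T cells, and the CD4 count of placebo 1 stood above those of the other mice.

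CD4 and CD8 T cells used some beta segments in different proportion, and the segments that passed the adjusted threshold were Trbv24 and Trbv19. In CD4 T cells Trbv24 made up 23.8%, 12.0%, 18.1% and 21.0% of the Trbv UMIs, in CD8 T cells 5.87%, 0.537%, 2.53% and 7.97%. The lowest CD4 value lay above the highest CD8 value. Trbv19 went the other way, with 10.2%, 15.5%, 8.55% and 7.09% in CD4 and 19.9%, 22.7%, 30.5% and 28.4% in CD8 T cells. Again the gates did not overlap. Counted by cells with exactly 1 Trbv segment, Trbv24 was in 21.0% of the CD4 and 3.99% of the CD8 T cells, and Trbv19 led in CD8 T cells with 21.3%.

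The test took UMIs summed per mouse and gate and was fitted on all genes with edgeR's quasi-likelihood test, with the mouse as a block. It called 274 of 7353 genes (3.73%), 2.07% higher and 1.66% lower in CD8 T cells, and 2 of the 23 segments tested, 1 in each direction. Of Trbv24 there were 357, 183, 295 and 332 CPM (summed UMIs scaled to the library size and TMM factor) in CD4 and 88.5, 6.77, 42 and 126 CPM in CD8 T cells. The means were 292 ± 76.9 and 65.8 ± 52.2 CPM (SD, n = 4), and the log2 fold change was -2.33 ± 0.33 (SE, edgeR adjusted p = 0.00769), lower in CD8 T cells of 4 of 4 mice. Of Trbv19 there were 153, 236, 139 and 112 CPM in CD4 and 299, 287, 506 and 448 CPM in CD8 T cells. Trbv24 reached the count minimum of the filter in 4 of 4 CD4 and 3 of 4 CD8 sums, and Trbv19 in all of them. The filter asks for 4 sums, so of the gates alone only CD4, where Trbv24 is high, carried it into the test. Its call and fold are read with that limit. The means of Trbv19 were 160 ± 53.5 and 385 ± 109 CPM, and it was higher in CD8 T cells of 4 of 4 mice by a log2 fold change of 1.28 ± 0.26 (edgeR adjusted p = 0.0330).

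The Trbv24 difference passed with each mouse left out in turn, at log2 fold changes from -2.71 to -2.07. The limit from the filter holds for the fits that keep placebo 2, whose CD8 sum had 3 Trbv24 UMIs. Trbv19 kept its direction but not its call: its edgeR adjusted p was 0.111 without placebo 1, 0.0802 without tamoxifen 1 and 0.131 without tamoxifen 2, at log2 fold changes of 1.40, 1.07 and 1.06. Counting positive cells in place of UMIs gave log2 fold changes of -1.87 for Trbv24 and 1.30 for Trbv19, in the same direction as by UMIs. With the mouse as a block, the p-values rest on how the difference between the gates varied from mouse to mouse, not on differences in level between mice. The groups were pooled here over treatment.

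Of the other leading segments none passed. Trbv1 had a mean of 486 ± 27.1 CPM in CD4 and 361 ± 54.5 in CD8 T cells (log2 fold change -0.43 ± 0.10, edgeR adjusted p = 0.0628), Trbv29 had 72.5 ± 15.9 and 155 ± 50.9 (1.07 ± 0.25, edgeR adjusted p = 0.0635), and Trbv31 had 120 ± 8.19 and 61.8 ± 33.4 (-1.08 ± 0.30, edgeR adjusted p = 0.113). For each of these, and for Trav9-1, the 4 CD4 values lay on 1 side of the 4 CD8 values. The share of all genes without overlap was not counted for these gates, so this is not read as particular to the segments. Trbv3 overlapped between the gates, at 157 to 222 CPM in CD4 and 196 to 324 in CD8 T cells. Among alpha segments Trav3-3 had 36.5 ± 2.66 CPM in CD4 and 52.7 ± 10.8 in CD8 T cells and Trav9-1 had 22.2 ± 3.62 and 12.5 ± 1.99, with edgeR adjusted p of 0.174 and 0.112. The median log2 fold change of the 23 segments was -0.24, beside -0.01 over all genes tested.

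**Figure D2:**
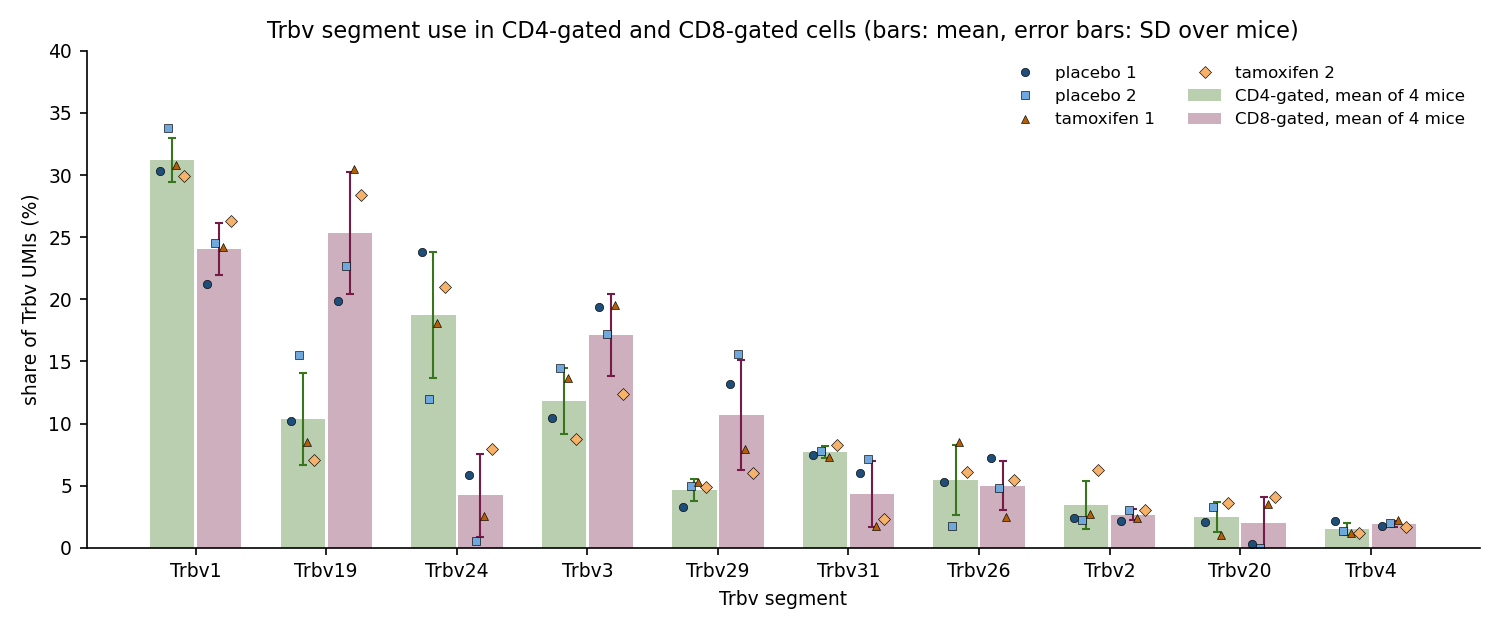
Share of Trbv UMIs in percent (vertical axis) for the leading Trbv segments (horizontal axis) in CD4 and CD8 T cells, with bars for the mean of the 4 mice, error bars for the SD and 1 point per mouse. Trbv24 stands at 12.0% to 23.8% in CD4 and below 8% in CD8 T cells, and Trbv19 at 19.9% or more in CD8 and 15.5% or less in CD4 T cells.

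The order of the segments within a gate depended on whether UMIs or cells were counted. By UMIs Trbv1 led in CD4 T cells with 30.3%, 33.8%, 30.8% and 29.9% of the Trbv UMIs (31.2% ± 1.76), and its range lay above that of Trbv24 (18.7% ± 5.04). After it came Trbv3 (11.8% ± 2.67), Trbv19 (10.3% ± 3.68) and Trbv31 (7.71% ± 0.449), and no further neighbours in the order had separate ranges. In CD8 T cells the leading segments Trbv19 (25.4% ± 4.92) and Trbv1, at 21.2%, 24.5%, 24.2% and 26.3%, overlapped. Trbv1 lay above Trbv3, which had 19.4%, 17.2%, 19.5% and 12.4%. The leading 3 segments made up 59.6% to 64.6% of the Trbv UMIs of CD4 and 60.5% to 74.3% of those of CD8 T cells. By cells with exactly 1 segment Trbv24 led in CD4 T cells, with 153 of 730 cells (21.0%) against 122 (16.7%) for Trbv1. In CD8 T cells Trbv3, with 100 of 577 (17.3%), then stood above Trbv1 (14.9%) and below Trbv19 (21.3%).

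Regulatory T cells could be looked at only thinly. CD4 T cells with a UMI of Foxp3, the transcription factor of that lineage, held 69 cells with exactly 1 Trbv segment. Trbv24 was in 15.9% of these and in 21.5% of the 661 such CD4 T cells without Foxp3, and Trbv1 in 11.6% and 17.2%. The share of Trbv1 UMIs in the Foxp3-positive cells was 10.8%, 46.7%, 29.1% and 11.0%, a wide spread over mice, beside 31.1% to 32.8% in the others.

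The CD8 T cells were then divided by state with lists chosen for naive cells (Ccr7, a homing receptor, and Lef1, a transcription factor) and for effector cells (S100a4, Ccl5, Nkg7, Cxcr6 and Icos). Cells with UMIs of the effector list and none of the naive list were few, 15, 5, 48 and 5 per mouse. Among those with exactly 1 Trbv segment, Trbv19 was the segment in 5 of 11, 1 of 4, 26 of 40 and 2 of 3, together 34 of 58 cells (58.6%, exact 95% interval 44.9 to 71.4, counting error only). In cells with the naive list alone it was in 9 of 58, 4 of 18, 3 of 38 and 4 of 24, together 20 of 138 (14.5%, 9.08 to 21.5). Cells with both lists stood near the naive ones, with 68 of 368 (18.5%). In every mouse the effector share was above the naive share, but 3 of the 4 effector sets held 11 cells or fewer. In placebo 2 the difference was that of 1 of 4 against 4 of 18 cells. Trbv29 was in 1 of 58 of the effector cells and in 20 of 138 of the naive ones.

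Most of the Trbv19 effector cells came from 1 mouse and had the same alpha segment. These cells were singled out after their values were seen, so they are described without a test. CD8 T cells with UMIs of both Trav4-2 and Trbv19 numbered 2 of 240, 0 of 102, 25 of 290 and 0 of 142. In tamoxifen 1 there were 29 Trav4-2 cells and 74 Trbv19 cells among the 290, and the product of the shares would give 7.4 cells with both. Trav12-3 was found with Trbv19 in 19 cells of the same mouse, where the product gives 6.38, and 15 of the 25 cells held Trav12-3 too, as did both cells of placebo 1. No other pair of segments exceeded 9 cells in 1 mouse and gate. Unique windows made up 74.6% of Trav4-2 and 75.5% of Trav12-3, so most of each segment can be told from its copies.

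The 25 cells were set beside the other 265 CD8 T cells of tamoxifen 1 in genes other than the pair. The pair was noticed among cells picked by the effector and naive lists, and 21 of the 25 had the effector list alone. Shares of the listed genes thus follow in part from that choice and only describe the cells. Eomes, Trbc1 and Trbc2 are on neither list. Ccl5, a chemokine of effector and memory CD8 T cells, was detected in 25 of 25 and in 18.9% of the others. Nkg7, a protein of cytotoxic granules, was in 25 of 25 and 66.8%, and Eomes, a transcription factor of memory and effector cells, in 72.0% and 7.55%. Cxcr6, a receptor of tissue-resident T cells, was in 52.0% and 22.6%, and S100a4 in 28.0% and 7.92%. The naive list went the other way, with Ccr7 in 12.0% and 80.8% and Lef1 in 4 of 25 and 76.2%. Icos, also on the effector list, was at a like share in both sets, 12.0% and 13.6%. Trbc1 and Trbc2 are the alternative beta constant genes, and Trbc1 was in 0 of 25 and 41 of 265 cells (15.5%), Trbc2 in 10 of 25 and 48.7%. Median depth was lower in the 25 cells, at 2861 UMIs against 3555 in the others. None of the 25 barcodes occurred in another library.

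**Figure D3:**
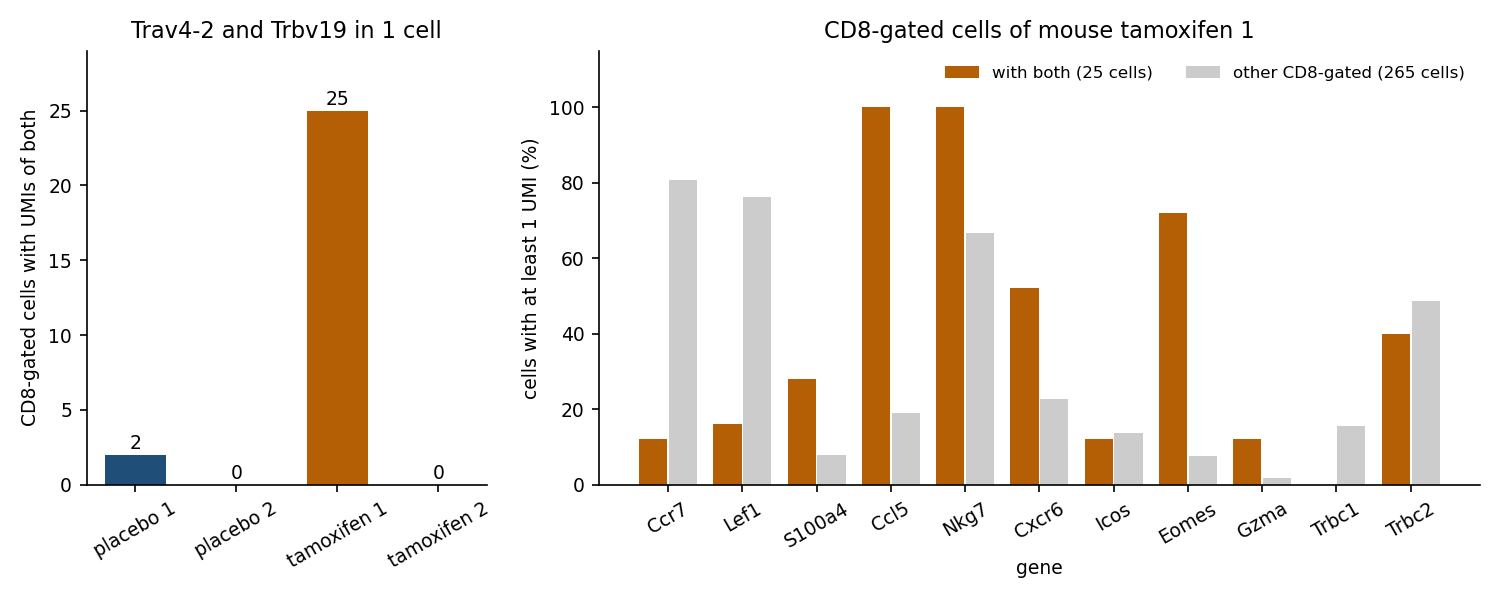
Left, the number of CD8 T cells with UMIs of both Trav4-2 and Trbv19 (vertical axis) in each mouse (horizontal axis). Right, the percentage of cells with at least 1 UMI (vertical axis) of naive, effector and beta constant genes (horizontal axis) in the 25 such cells of tamoxifen 1 and its 265 other CD8 T cells. The pair is concentrated in tamoxifen 1, and its cells hold Ccl5, Nkg7 and Eomes more often and Ccr7 and Lef1 less often than the others. The pair was noticed among cells picked by the naive and effector lists, and Eomes and the beta constant genes are on neither list. Icos is held at a like share in both sets.

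Removing all Cd3-positive cells with Trav4-2 and Trbv19 left the Trbv19 difference between CD8 and CD4 T cells at a log2 fold change of 1.18 ± 0.23 (edgeR adjusted p = 0.0296). With all cells it was 1.28. The removal took only cells with a captured UMI of both segments. In tamoxifen 1, 3 Trbv19 effector cells with no Trav UMI and 2 with Trav12-3 alone stayed in. The part of such cells in the difference was not tested. In tamoxifen 1 Trav4-2 had 72 UMIs in CD8 T cells, 66 of them in Trbv19 cells, beside 4, 3 and 5 in the other mice.

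Between tamoxifen and placebo no variable segment passed in the Cd3-positive cells, the CD4 T cells or the CD8 T cells. In all Cd3-positive cells edgeR called 0 of 12165 genes (0%) and 0 of 63 segments. Before adjustment, 0.05 was passed by 87 genes (0.715%) and 2 segments: Trav10 at 2.08, 1.59, 4.19 and 4.68 CPM and Trav9d-1 at 0.959, 0.797, 2.74 and 2.24 CPM. Both segments reached the count minimum in both tamoxifen sums but not in both placebo sums, so they entered the test through the group where they are high. DESeq2 called 8 genes and 0 segments. The groups did not overlap for 19 of the 63 segments, and for 20.1% of all genes. In CD4 T cells edgeR called 0 of 8042 genes (0%) and 0 of 30 segments, beside 284 genes (3.53%) and 4 segments whose unadjusted p was under 0.05. DESeq2 called 11 genes and 0 segments there. These 4 were Trav8d-1, at 11.8, 15.2, 26.8 and 27.6 CPM, Trbv26, at 80.8, 27.3, 143 and 100 CPM, Trbv2, at 36.3, 34.9, 45.8 and 103 CPM, and Trbv19, at 157, 241, 143 and 116 CPM. Trbv19 was thus lower in the CD4 T cells of the tamoxifen mice and the other 3 were higher, without passing the adjusted threshold. The groups did not overlap for 14 of the 30 segments and for 31.1% of all genes.

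In CD8 T cells edgeR called 8 of 6803 genes (0.118%) and 0 of 20 segments. At an unadjusted p under 0.05 it had 337 genes (4.95%) and 6 segments, and groups did not overlap for 10 of the 20 segments and for 35.2% of all genes. Trbv20 had the smallest p. It had 4.76, 0, 56.9 and 61.9 CPM, from 4, 0, 71 and 31 UMIs in 2, 0, 8 and 4 cells, and the log2 fold change was 4.21 ± 0.57 (SE, edgeR adjusted p = 0.0931). It reached the count minimum in 2 of 2 tamoxifen and 0 of 2 placebo sums, so it entered the test through the group where it is high, and its fold rests on 4 placebo UMIs. A single cell held 28 of the 71 UMIs in tamoxifen 1 (39.4%) and 15 of the 31 in tamoxifen 2 (48.4%), so 12 cells carry this difference in the tamoxifen mice. The adjusted p was 0.0097 with DESeq2 and 0.0142 with edgeR without cells holding other lineages' markers, and the same limit holds for both. With 1 mouse left out, an arm is 1 mouse that is assumed to vary like the other arm, and edgeR then gave an adjusted p of 0.0398 without placebo 2, 0.0212 without tamoxifen 1 and 0.0157 without tamoxifen 2. Without placebo 1 the placebo group has no Trbv20 UMI and its fitted fold is no measured value. Over all Cd3-positive cells Trbv20 had 116, 51, 122 and 107 UMIs, and the groups overlapped.

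The other 5 CD8 segments at an unadjusted p under 0.05 did not overlap between the groups. Trbv31 had 89.2, 87.5, 28.0 and 36.0 CPM (log2 fold change -1.51 ± 0.23, edgeR adjusted p = 0.152) and Trbv19 had 294, 278, 492 and 434 CPM (0.70 ± 0.17, edgeR adjusted p = 0.602). Trbv29 had 195, 190, 128 and 91.9 CPM, Trbv5 had 28.6, 28.4, 14.4 and 9.99 CPM, and Trav12-1 had 10.7, 13.1, 32.8 and 26 CPM. Trbv5 reached the count minimum in the placebo sums only and Trav12-1 in the tamoxifen sums only. Trbv19, Trbv20 and Trav12-1 were thus higher, and Trbv31, Trbv29 and Trbv5 lower, in both tamoxifen mice than in both placebo mice, without passing the adjusted threshold. The myeloid list summed to 4855, 6424, 1217 and 689 UMIs in the same CD8 T cells, higher in both placebo mice despite fewer cells than in tamoxifen 1. By cells, it reached 1 UMI in 16.7%, 49.0%, 24.5% and 17.6%, lowest in placebo 1, and 3 UMIs in 4.58%, 13.7%, 3.79% and 2.82%. An epithelial list (Epcam, Sftpc and Scgb1a1) summed to 1006, 177, 16961 and 246 UMIs, highest in tamoxifen 1. With cells of other lineages removed 1 segment was called, Trbv20. The test of whether tamoxifen and placebo differed otherwise in CD8 than in CD4 T cells called 0 of 7353 genes (0%) and 0 of 23 segments with edgeR, and 327 genes (4.45%) and 5 segments had an unadjusted p under 0.05.

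**Figure D4:**
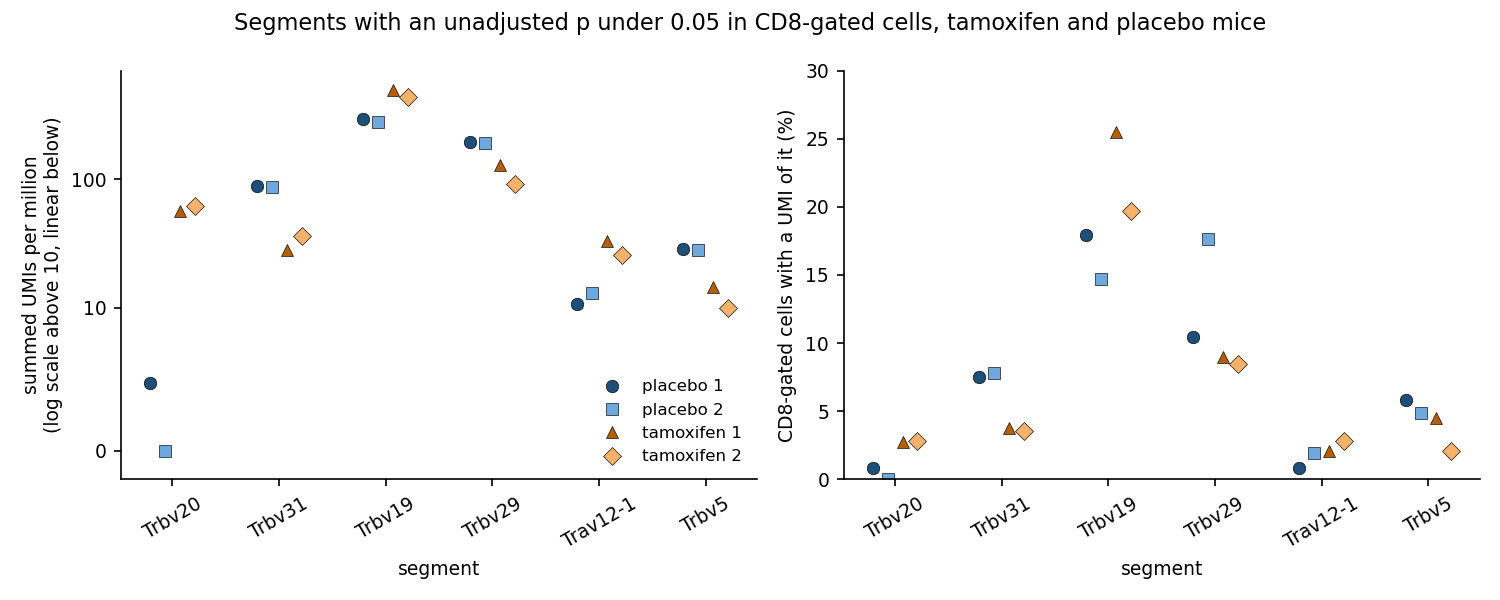
Scaled summed UMIs in CD8 T cells (CPM; left, log scale above 10 and linear below) and percentage of CD8 T cells with a UMI of the segment (right), for the 6 segments with an unadjusted p under 0.05 (horizontal axes), 1 point per mouse. For each segment the tamoxifen mice lie to 1 side of the placebo mice, and none of the 6 passed the adjusted threshold.

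Single mice also departed from the rest in particular segments. For each mouse and gate the segment whose share of Trbv UMIs lay farthest above the mean of the other mice was taken, as a description. In CD4 T cells these were Trbv24 in placebo 1 (23.8% against 17.0%), Trbv19 in placebo 2 (15.5% against 8.62%), Trbv26 in tamoxifen 1 (8.55% against 4.38%) and Trbv2 in tamoxifen 2 (6.29% against 2.45%). In CD8 T cells they were Trbv29 in both placebo mice (13.2% against 9.84% in placebo 1 and 15.6% against 9.05% in placebo 2), Trbv19 in tamoxifen 1 (30.5% against 23.7%) and Trbv24 in tamoxifen 2 (7.97% against 2.98%). Counted by cells with 1 segment, Trbv29 in placebo 1 fell below the others (10.0% against 14%), while the other CD8 departures kept their side. In CD4 T cells the departure of Trbv19 in placebo 2 shrank to 8.49% against 7.76% by cells, and the others were 24.0% against 18.5% for Trbv24, 5.93% against 3.38% for Trbv26 and 13.2% against 8.93% for Trbv2.

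Cells with Trdc, the delta constant gene, were 44 of 1512, 26 of 998, 57 of 1462 and 35 of 1233, or 2.91%, 2.61%, 3.90% and 2.84% of the Cd3-positive cells. The share was 2.76% ± 0.216 in placebo and 3.37% ± 0.750 in tamoxifen mice (SD, n = 2), and the difference of 0.611 percentage points had an exact two-sided permutation p of 0.667. With 2 mice against 2 the test cannot go below 0.333. With cells of other lineages removed the difference was -0.334. A change of the share was not detectable with 2 mice per group.

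In the Trdc-positive cells the delta segment Trdv4 and the gamma segment Trgv2 were higher, and the beta segments Trbv1 and Trbv24 lower. Tested against the Trdc-negative Cd3-positive cells of the same mice, edgeR called 737 of 10705 genes (6.88%) and 13 of 33 segments, 4 higher (1.84% of all genes) and 9 lower (5.04%). These 4 named segments reached the count minimum in all sums of both sets. The other 9 calls were of segments that passed the filter only through the set where they are high, 2 through the Trdc-positive and 7 through the Trdc-negative cells. The filter thus favoured their direction, and the counts are not read against the background. Trdv4 had 453, 683, 531 and 618 CPM in the Trdc-positive and 9.45, 33.7, 5.86 and 20.7 CPM in the Trdc-negative cells, a log2 fold change of 5.29 ± 0.38 (SE, edgeR adjusted p = 0.000388), higher in 4 of 4 mice. Since Trdv segments share their transcripts with Trdc, this serves as a check of the gate. Trgv2, a gamma segment and not part of the gate's transcripts, had 118, 123, 83.6 and 259 CPM against 24.2, 15.3, 13.8 and 23.2 CPM, a log2 fold change of 2.84 ± 0.25 (edgeR adjusted p = 0.00137), higher in 4 of 4 mice. Of those that passed the filter through the Trdc-positive cells only, Trdv5 had 47 UMIs in them and 28 in the others, and Trav15-2-dv6-2 had 21 and 32. The latter is a segment whose name marks use in both the alpha and the delta chain.

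Trbv1 had 84.5, 9.11, 27.2 and 40.9 CPM in the Trdc-positive and 360, 216, 395 and 369 CPM in the Trdc-negative cells (log2 fold change -3.20 ± 0.36, edgeR adjusted p = 0.00278). Trbv24 had 47.3, 22.8, 10.5 and 90.8 CPM against 188, 91.4, 136 and 173 CPM (-2.03 ± 0.39, edgeR adjusted p = 0.0185). The segments that passed the filter through the Trdc-negative cells only are given by their UMIs. Trbv29 had 9, 0, 3 and 0 UMIs in the Trdc-positive cells and 393, 198, 399 and 207 in the others, and Trbv26 had 2, 0, 11 and 6 against 284, 86, 427 and 213. Trbv4 had 1 UMI in the Trdc-positive cells and 307 in the others, Trav9-1 had 1 and 251, and Trav5-4 had 2 and 397. Trav3-3 had 0 and 491 UMIs, at least 7.69-fold lower, and Trav8d-1 had 0 and 232, at least 3.63-fold lower, with 3 counts over the 4 mice in place of 0. The calls depended on the number of mice: 7 segments passed without placebo 1, 5 without placebo 2, 7 without tamoxifen 1 and 10 without tamoxifen 2. Trgv2, Trbv1 and Trdv4, the last a check of the gate, passed in each of these. Trdv5 and Trav3-3 did so too, but with all mice they entered the test only through the set where they are high. Their passing is therefore not read as support. Trbv24 did not, with an edgeR adjusted p of 0.0595 without placebo 1 and 0.08 without placebo 2.

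Among the 162 Trdc-positive cells Trdv4 was in 60 (37.0%), at 31.8%, 46.2%, 40.4% and 31.4% per mouse. Tcrg-V6 was in 53 of the 60 (88.3%, exact 95% interval 77.4 to 95.2), with 85.7%, 91.7%, 82.6% and 100% per mouse, and in 2 of the 102 Trdc-positive cells without Trdv4 (1.96%, 0.238 to 6.90). Cd163l1, a scavenger receptor of IL-17-producing gamma delta cells, was in 93.3% and 3.92% of the same sets. Blk, a kinase of that lineage, was in 75.0% and 2.94%. The 102 cells without Trdv4 held Trdv5 in 11.8% and Trdv2-2 in 9.80%, and Trdv5 was in 0 of the 60. Trgv2 did not separate the sets, at 38.3% and 35.3%.

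**Figure D5:**
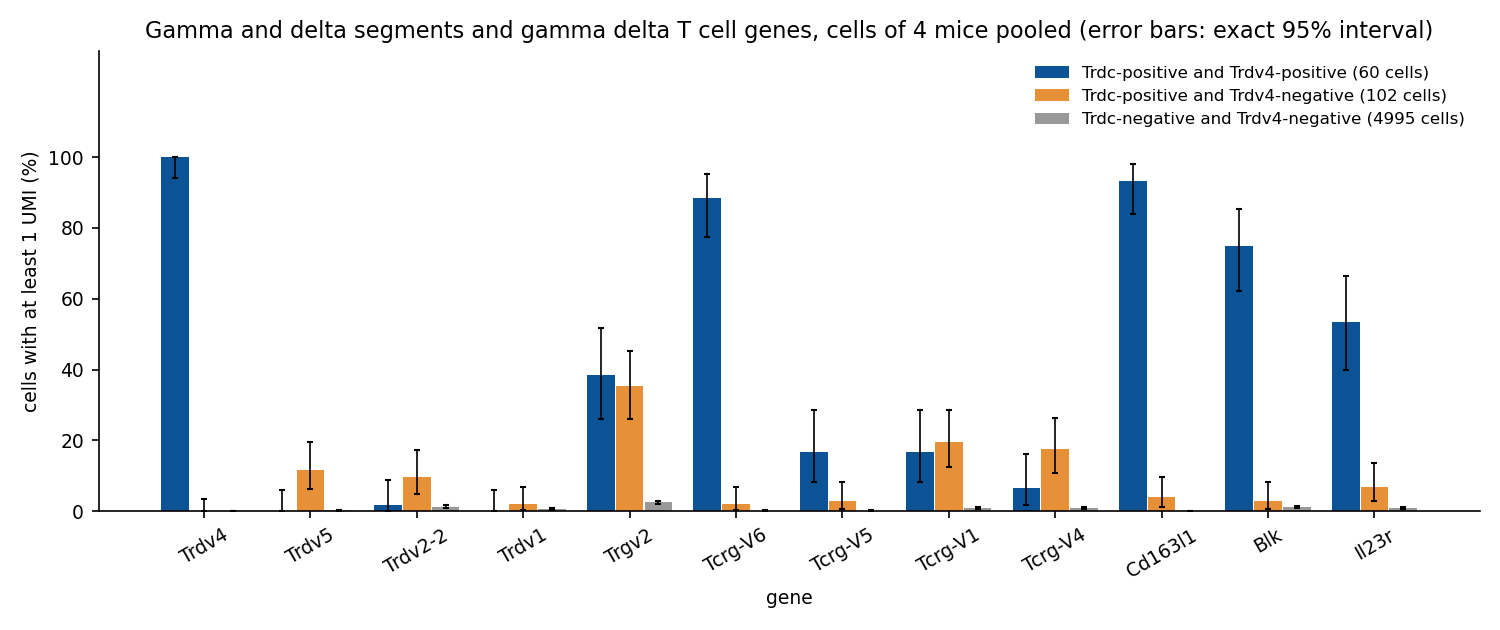
Percentage of cells with at least 1 UMI (vertical axis) of gamma and delta segments and of genes of gamma delta T cells (horizontal axis) in Trdc-positive cells with Trdv4 (60 cells), Trdc-positive cells without it (102 cells) and Cd3-positive cells with neither (4995 cells), pooled over 4 mice, with exact 95% intervals. Trdv4 goes with Tcrg-V6, Cd163l1 and Blk, and Trgv2 is found at a like share in both Trdc-positive sets.

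Not every Trdc-positive cell was free of beta segments. A Trbv UMI was in 48 of the 162 (29.6%), far above the 0.336% of B cells, in 11 of the 60 with Trdv4 and in 37 of the 102 without. Of 9 Trdc-positive cells with Dntt, the enzyme that adds bases at segment joints in the thymus, 8 had a Trbv UMI and 8 had Cd8a or Cd8b1, and none had Trdv4, whereas 40 of the 153 without Dntt had a Trbv UMI (26.1%). Dntt-positive cells came from placebo 1 (6 cells), tamoxifen 1 (1) and tamoxifen 2 (2). A set of 56 cells with both Cd4 and Cd8 UMIs held Rag1, a subunit of the recombinase that joins the segments, in 13 cells (23.2%), against 0 of 1030 CD4 and 9 of 774 CD8 T cells.

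The delta and gamma segments were not limited to Trdc-positive cells. Trdv4 was in 108 Cd3-positive cells, of which 60 had Trdc (55.6%), and outside the Trdc gate 47 of the other 48 had no coreceptor UMI. Trgv2 was in 196 cells, and 108 of these had a Trbv UMI (55.1%), 59 had Trdc and 90 had Zbtb16 (45.9%), the transcription factor of innate-like T cells. Trdv1 behaved unlike Trdv4, with 46 of its 114 UMIs in CD4 T cells, 32 in CD8 T cells and 4 in Trdc-positive cells. Trdv2-2 likewise had 25 of 93 UMIs in CD4 T cells, while Trdv2-1 had 2 UMIs and the pseudogene Trdv3 had 0. The annotation of these files names Trgv2 alone in the Trgv style. Other gamma segments are named Tcrg-V1, Tcrg-V3, Tcrg-V4, Tcrg-V5, Tcrg-V6 and Tcrg-V7, which is why they are no members here.

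Pairs of alpha and beta segments were spread thinly over the cells. Exactly 1 Trav and exactly 1 Trbv segment were seen in 1030 Cd3-positive cells, with 400 different pairs, of which 162 occurred once, and no pair was in more than 7 such cells of a mouse. The alpha segment most often found with Trbv1 was Trav5-4, in 11 of 169 cells, and with Trbv3 it was also Trav5-4, in 16 of 161. Trbv24 was most often with Trav9-1, in 10 of 158 cells, Trbv19 with Trav4-2, in 9 of 96, and Trbv31 with Trav3-3, in 8 of 92. All of these partners are among the 10 alpha segments with the most UMIs.

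The other genes of the receptor pathway were followed from a list of 28, of which 25 are in the files. None of 24, 19 and 20 tested members passed between tamoxifen and placebo in Cd3-positive, CD4 and CD8 T cells. Between CD8 and CD4 T cells 3 of 21 were higher and 4 lower, and Cd4, Cd8a and Cd8b1 among them define the gates. The rest were Cd3d, a CD3 chain (log2 fold change 0.33), and, lower in CD8 T cells, the costimulatory receptor Cd28 (-0.87) and the signal dampeners Cd5 (-1.04) and Cd6 (-0.51). In Trdc-positive cells 4 of 24 were higher and 6 lower, beside 1.84% and 5.04% of all genes, and Trdc and Cd4 among them are left aside, the first because it defines the gate and the second because it marks CD4 T cells in the other set. Trac, the alpha constant gene, was lower (log2 fold change -1.74), as were Cd28 (-1.56), Cd5 (-2.10) and Cd6 (-1.77), while Zap70, a kinase of the receptor (0.80), Trbc2 (1.21) and Dntt (4.03) were higher. Nr4a1, a gene induced by receptor signals among others, was lower by the test (-1.28), at 312 ± 70.9 CPM in the Trdc-positive and 793 ± 310 in the Trdc-negative cells, but it had 310 ± 68.2 CPM in CD4 and 237 ± 61.7 in CD8 T cells, each set scaled in its own comparison. The Trdc-negative cells include the set without coreceptor, in which the myeloid list is high. Markers of natural killer cells moved with the gate: at least 1 UMI of a list of 5 (Ncr1, Klrb1c, Klre1, Gzma and Eomes) was in 22.8% to 46.2% of the Trdc-positive and 0.855% to 2.56% of the CD4 T cells per mouse, and Ncr1, a receptor of these cells, in 14.8% and 0.194%. In CD8 T cells the list was in 4.93% to 15.9% of the cells per mouse and Ncr1 in 0.258%. The part of natural killer cells in the differences was not tested.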

How the data were processed

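UMI counts per gene and cell were deposited as filtered matrices of 4 libraries, 1 per mouse. Cell Ranger 5.0.0 made these counts per the file headers, while Cell Ranger 8.0.1 and mm10 are named per the submitters' processing notes, and the difference is unresolved. All columns were mapped to samples (0 left out). Cells with at least 250 genes, at most 15% mitochondrial UMIs and a Scrublet score under 0.25 were kept (scanpy 1.11.5, Python 3.11.15). Gates used at least 1 UMI. UMIs were summed per mouse and gate and tested on all genes with edgeR 4.0.16 (quasi-likelihood, TMM, filterByExpr, Benjamini-Hochberg, threshold 0.05) in R 4.3.3, and with DESeq2 1.42.0 as an alternative, after tests on simulated data. The labels describe 2 mice per group and state no pairing by replicate number, so none was used in the main treatment comparisons. Segment positions, types and sequences come from GENCODE M21, and older names from RefSeq. Intervals are exact binomial at 95% and, like the limits for 0 counts, cover counting error only. Named segments are those called, the 10 Trbv and Trav with the most UMIs, all Trgv, Trdv and silent Trbv, each mouse's most raised Trbv, known invariant segments and leading partners. Members and lists were chosen with earlier results of these data known. Of the cell type markers, 2 are not reported here and were left out of the lists.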

Additional observations from a re-analysis of the deposited data

How the results depend on the processing

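The number of segments called between tamoxifen and placebo moved in CD4 T cells from 0 to 4 with no count filter and between 0 and 1 with a mouse left out. In CD8 T cells it moved from 0 to 1 with DESeq2, 4 with no count filter, 1 with other-lineage cells removed, 2 with the replicate block, and 1 to 4 with a mouse left out. Between CD8 and CD4 T cells it moved from 2 to 10 with no count filter, 5 with doublets kept, 7 with other-lineage cells removed, 4 by positive cells, and 1 to 3 with a mouse left out. In Trdc-positive cells it moved from 13 to 23 with no count filter, and 5 to 10 with a mouse left out. The cause of each was not tested. These counts stand without the share of all genes called under the same setting, so the moves are not read as particular to the segments. The labels state no pairing of mice by replicate number. Same-numbered mice correlated at 0.433 and cross-numbered mice at -0.433. With 2 mice per group these values mirror each other by construction, so they cannot decide whether the numbers pair mice. The replicate block gave 0 calls in Cd3-positive cells and in CD4 T cells. The difference in the Trdc share turned to -0.334 with other-lineage cells removed and ran from 0.081 to 1.14 with a mouse left out. It was 0.627 with cells thinned to 1500 UMIs, an alternative chosen after seeing the data, as was the removal of cells with Trav4-2 and Trbv19. The share of cells with a Trbv UMI was 72.4% with at least 2 Cd3 UMIs and 76.3% with other-lineage cells removed, and 52.6% to 61.7% with a mouse left out. By cells with 1 segment, Trbv1 and Trbv31 held 17.3% and 10.1% in CD4 T cells, and Trbv1 and Trbv19 held 15.2% and 19.9% in CD8 T cells, as means over mice. Between treatments in CD4 T cells the log2 fold change of Trbv20 was -0.20, and it was 0.161 without placebo 2, 0.545 without tamoxifen 1 and -1.27 without tamoxifen 2. Between CD8 and CD4 T cells it was -0.22, and it was 0.177 with other-lineage cells removed, 0.206 without placebo 1, 0.292 without placebo 2 and -1.26 without tamoxifen 1. The 20 silent Trbv segments were at 0 UMIs under every setting run, and silent Trav segments numbered 55 to 59. Depth limits segments with few UMIs, and 2 mice per group limit every treatment comparison.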
